A study of Mus musculus with 12 samples.

Results

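The genes described here encode the lecticans Acan (aggrecan), Vcan (versican), Bcan (brevican) and Ncan (neurocan), the link proteins Hapln1, Hapln2 and Hapln4, the tenascins Tnc and Tnr, and the receptor phosphatase Ptprz1. They were chosen by name, with earlier results of these data known, as a family of the extracellular matrix. All of them, 10 of 10, were present among the 22317 gene symbols of the count table. Their RNA was followed in 12 poly(A) libraries from wild-type adult male BALB/c mice, 3 libraries in each of 4 groups. The groups labelled SB2 and SB4 were brain cortex on day 2 and day 4 after photothrombosis (PT, a light-induced clotting of vessels) of the skull. The groups labelled BS2 and BS6 were interparietal bone, a bone of the skull vault, on day 2 and day 6 after PT of the brain. By their labels, all groups came from injured animals and from the tissue that was not itself injured. Control groups and the injured tissues were not analysed here. As labelled, the comparisons ask how the tissue next to the injury changed with time. The content of the libraries, given below, does not let them answer that question.

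Lecticans are chondroitin sulfate proteoglycans that bind hyaluronan at one end and tenascins at the other. Link proteins lock the lectican onto the hyaluronan chain, and tenascins join several lecticans into a net. In brain this matrix fills the space between cells and condenses around some neurons, many of them parvalbumin interneurons, as perineuronal nets. In cartilage the same plan, with aggrecan and Hapln1, gives the tissue its resistance to compression. Ptprz1 is a receptor of glial cells, and phosphacan, a secreted form of its extracellular part, is itself a chondroitin sulfate proteoglycan that binds tenascins.

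The libraries did not all carry the transcripts of their labelled tissue. Col1a1, the main collagen of bone, stood at 18663 to 77844 CPM (counts relative to library size, with TMM factors) in the libraries labelled SB2 and BS6 and at 2.56 to 9.37 CPM in those labelled SB4 and BS2. Snap25, a synaptic protein of neurons, stood at 8.79 to 55.3 CPM in the former and at 3327 to 3512 CPM in the latter. The libraries labelled SB2 as brain were therefore rich in bone transcripts, and those labelled BS2 as bone were rich in brain transcripts, so their content was that of the tissue labelled as injured. Whether SB2 and BS2 were exchanged was not tested. Every direction below is one between libraries with these labels, and time after injury cannot be told apart from the tissue content of the libraries. In bulk RNA, fewer cells of a type and less RNA per cell cannot be told apart either. Total counts were 14126082 to 18972654 per library. BS6 replicate 2 stood apart from the other BS6 libraries, with Col1a1 at 18663 CPM against 55309 and 77844, and results that rest on it are given without it as well.

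The promoters of 4 genes are printed, those of the tenascins, which moved in opposite directions, and those of the brain lecticans, which differed in what remained of them in the libraries rich in bone transcripts. They are read from RefSeq on GRCm38.p6, from 250 bases before to 50 bases after the transcript start. Capitals mark, on either strand, TATAAA (the TATA box), CCAAT (the box of that name), GGGCGG (the GC box) or ACAAAG (a motif of SOX factors). None of the marked motifs overlap each other.
Tnc promoter, chr4:64046966-64047265, minus strand: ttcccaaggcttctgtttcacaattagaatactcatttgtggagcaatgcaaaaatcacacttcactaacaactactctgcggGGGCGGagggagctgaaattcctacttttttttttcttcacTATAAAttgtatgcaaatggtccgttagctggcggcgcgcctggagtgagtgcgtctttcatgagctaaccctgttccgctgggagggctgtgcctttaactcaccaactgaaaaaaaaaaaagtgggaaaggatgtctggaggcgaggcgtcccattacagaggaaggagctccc
Tnr promoter, chr1:159523519-159523818, plus strand: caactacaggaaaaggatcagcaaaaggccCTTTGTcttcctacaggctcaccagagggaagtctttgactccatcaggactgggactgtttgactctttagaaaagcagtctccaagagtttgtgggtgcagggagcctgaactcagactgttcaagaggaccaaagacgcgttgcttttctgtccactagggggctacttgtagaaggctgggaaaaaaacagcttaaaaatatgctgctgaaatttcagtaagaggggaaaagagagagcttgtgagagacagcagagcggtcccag
Bcan promoter, chr3:88000307-88000606, minus strand: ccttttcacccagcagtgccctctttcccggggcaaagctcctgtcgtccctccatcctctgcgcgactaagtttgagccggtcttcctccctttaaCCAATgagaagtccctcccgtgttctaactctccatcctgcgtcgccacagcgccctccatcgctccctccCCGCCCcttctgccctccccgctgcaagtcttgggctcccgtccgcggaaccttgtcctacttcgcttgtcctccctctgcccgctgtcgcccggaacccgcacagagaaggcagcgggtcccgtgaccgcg
Ncan promoter, chr8:70120795-70121094, minus strand: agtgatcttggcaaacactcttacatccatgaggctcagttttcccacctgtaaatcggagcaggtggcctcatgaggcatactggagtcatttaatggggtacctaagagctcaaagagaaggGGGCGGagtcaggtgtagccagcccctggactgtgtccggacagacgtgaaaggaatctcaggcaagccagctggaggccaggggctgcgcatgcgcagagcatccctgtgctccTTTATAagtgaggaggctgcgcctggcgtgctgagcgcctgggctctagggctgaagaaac
The Tnc window held TATAAA at position -126 and GGGCGG at position -167, counted with the transcript start as 0. The Ncan window held TATAAA at position -11 and GGGCGG at position -126. In the Bcan window CCAAT lay at position -153 and GGGCGG at position -82, and in the Tnr window the one marked motif was ACAAAG at position -220.

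A RefSeq promoter was matched for 9 of the 10 genes, all but Hapln4. GGGCGG was found in 6 of the 9 windows (Acan, Vcan, Bcan, Ncan, Tnc and Ptprz1), and in 35.7% of 32851 mouse promoters of the same length. CCAAT was found in 4 of the 9 (Acan, Vcan, Bcan and Hapln2), against 37.4% of all. TATAAA was found in 2 of the 9 (Ncan and Tnc), against 13.6%, and ACAAAG in Tnr alone, against 18.7%. The GC content ran from 47.3% in Tnc and 48% in Tnr to 71.7% in Ptprz1 and 74% in Acan, around a median of 52.7% over all promoters. RefSeq lists a second Tnc start nearby, whose window has a GC content of 54% and holds the same TATAAA and GGGCGG at positions -205 and -246. A match of letters is a description and no evidence that a factor binds.

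Aggrecan and versican were the lecticans higher in the libraries rich in bone transcripts. Acan (chromosome 7, 79053483 to 79115099, mm10), the large proteoglycan of cartilage and of perineuronal nets, stood at 95.5, 95.9 and 97.6 CPM in SB2, at 33.5, 14.3 and 50.1 in BS6, at 5.19, 5.12 and 5.04 in SB4 and at 3.67, 3.38 and 3.91 in BS2. SB2 and BS6 lay above SB4 and BS2 without overlap. SB2 was the highest group and the tightest relative to its mean, and BS6 replicate 2 was the lowest of its group. Acan was 18.6-fold lower in SB4 than in SB2 (log2 fold change -4.22, SE 0.08, adjusted p = 2.80e-12, quasi-likelihood F test of edgeR, Benjamini-Hochberg adjusted) and 8.92-fold higher in BS6 than in BS2 (log2 fold change 3.16, SE 0.47, adjusted p = 9.88e-04).

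Vcan (chromosome 13, 89655312 to 89742509), a lectican of loose connective tissue, vessels and developing brain, stood at 144, 131 and 182 CPM in SB2, at 93.7, 41.1 and 61.3 in BS6, at 21.9, 19.4 and 20.4 in SB4 and at 22.5, 18 and 19.7 in BS2. Its order of groups was that of Acan, but SB4 and BS2 overlapped. Vcan was 7.36-fold lower in SB4 than in SB2 (log2 fold change -2.88, SE 0.12, adjusted p = 9.21e-09) and 3.26-fold higher in BS6 than in BS2 (log2 fold change 1.70, SE 0.30, adjusted p = 0.0023).

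The brain lecticans showed the opposite pattern. Bcan (chromosome 3, 87987531 to 88000230), made largely by glial cells, stood at 9.71, 6.50 and 8.47 CPM in SB2 and at 9.94, 21.8 and 19.7 in BS6, but at 204, 208 and 212 in SB4 and at 162, 209 and 180 in BS2. It was 25.4-fold higher in SB4 than in SB2 (log2 fold change 4.66, SE 0.11, adjusted p = 1.82e-11) and 10.7-fold lower in BS6 than in BS2 (log2 fold change -3.42, SE 0.31, adjusted p = 1.14e-04). Bcan thus kept a measurable level in every library, with SB4 the tightest group relative to its mean.

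Ncan (chromosome 8, 70093085 to 70120873), a lectican found almost only in the nervous system, was near 1 CPM where bone transcripts prevailed. It stood at 1.76, 0.262 and 0.484 CPM in SB2 and at 1.20, 1.63 and 0.647 in BS6, against 191, 169 and 215 in SB4 and 177, 188 and 172 in BS2. SB2 replicate 1 was the highest of its group. Ncan was higher in SB4 than in SB2 by 7.79 on the log2 scale (SE 0.37, adjusted p = 4.28e-06), and by 8.96 without SB2 replicate 1. In BS6 it was 153-fold lower than in BS2 (log2 fold change -7.26, SE 0.30, adjusted p = 6.49e-06).

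**Figure D1:**
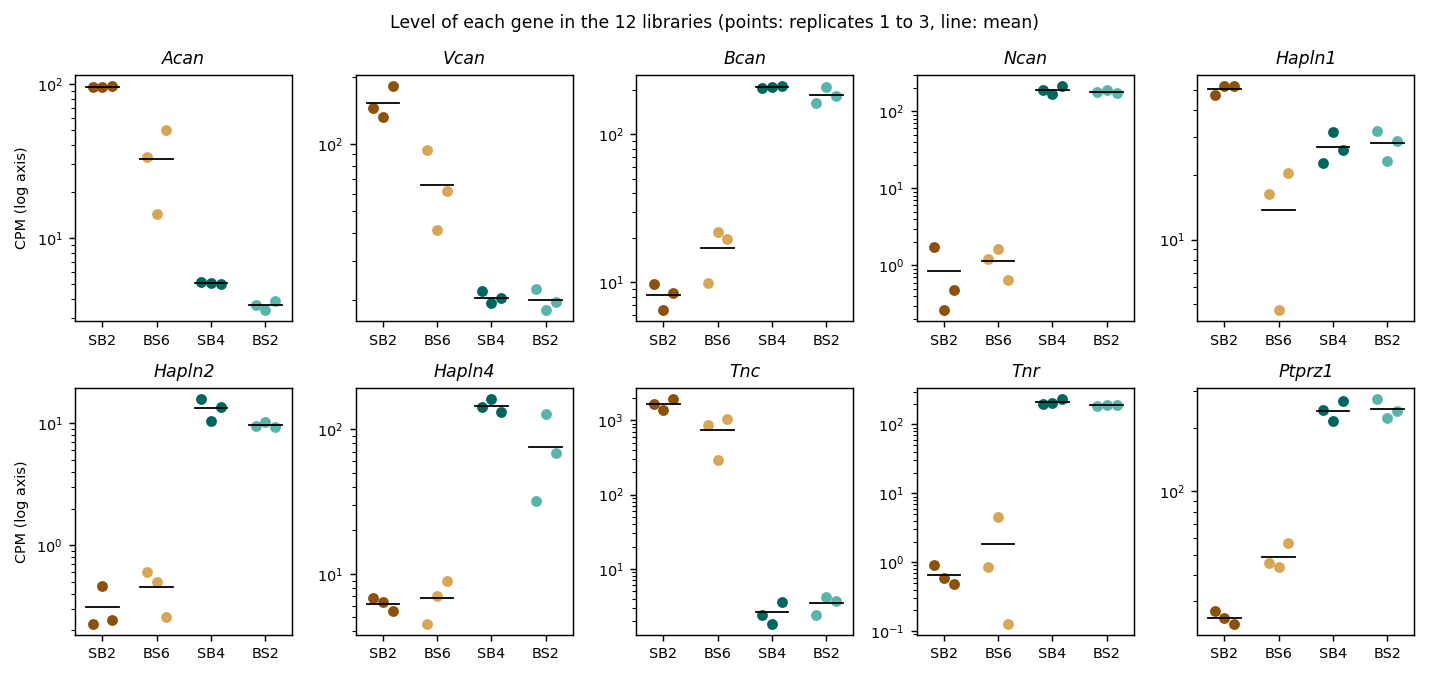
Level of each gene in CPM on a log axis in the libraries labelled SB2, BS6, SB4 and BS2, with points for replicates 1 to 3 and a line at the group mean. Acan, Vcan and Tnc lie highest in SB2 and BS6, whereas Bcan, Ncan, Hapln2, Hapln4, Tnr and Ptprz1 lie highest in SB4 and BS2, and Hapln1 is highest in SB2 and lowest in BS6.

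The make-up of the lectican pool differed accordingly. Of the summed CPM per kb of exon of the 4 lecticans, Acan made up 50.6% ± 3.74 (SD, n = 3) in SB2 and 31.3% ± 12 in BS6, but 0.859% ± 0.0491 in SB4 and 0.686% ± 0.0987 in BS2. Vcan made up 41.0% ± 3.68, 34.0% ± 11.9, 1.78% ± 0.125 and 1.95% ± 0.383 in the same order. The groups rich in brain transcripts were dominated by Bcan, at 64.1% ± 2.37 in SB4 and 62.7% ± 2.45 in BS2, followed by Ncan at 33.3% ± 2.43 and 34.7% ± 2.00. In SB2 Bcan made up 7.90% ± 1.36, but in BS6 33.4% ± 17.1, level with Acan and Vcan there. Its share in BS6 ran from 18% to 51.8%, the latter in BS6 replicate 2, and was 24.2% without that library, against 37.6% for Acan and 37.2% for Vcan. Without division by exon length the long Vcan transcript took 58.9% of the pool in SB2 and 55.5% in BS6, while Bcan and Ncan took 49.0% and 45.0% in SB4.

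The ratio of Bcan to Ncan separated the groups even though both genes were high in brain. Per kb, Bcan exceeded Ncan 1.94-fold on average in SB4 (1.75 to 2.18 over the libraries) and 1.81-fold in BS2 (1.63 to 1.96). In SB2 the ratio was 28.2 (9.77 to 43.8) and in BS6 30.7 (14.7 to 53.8), and it rests there on an Ncan level near 1 CPM.

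Among the link proteins Hapln1 was the exception. Hapln1 (chromosome 13, 89539796 to 89611652), the link protein of cartilage and of perineuronal nets, stood at 47.3, 51.7 and 52.1 CPM in SB2, at 16.3, 4.69 and 20.4 in BS6, at 22.8, 31.8 and 26.2 in SB4 and at 32.2, 23.3 and 28.7 in BS2. It was highest in SB2 and lowest in BS6, the 2 groups rich in bone transcripts, and SB4 and BS2 lay between them. From SB2 to SB4 its log2 fold change was -0.88 (SE 0.12, adjusted p = 3.36e-05), which passed the p threshold but not the fold threshold of 1. From BS2 to BS6 it was -1.02 (SE 0.49, adjusted p = 0.102), and without BS6 replicate 2 it was -0.60 (adjusted p = 0.00812). Hapln1 was the only one of the 10 genes whose log2 fold change had the same sign in both comparisons over time. The difference between both changes was -0.12 (SE 0.53, adjusted p = 0.834).

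Hapln2 (chromosome 3, 88021750 to 88027583), a link protein at the nodes of Ranvier of myelinated axons, stood at 15.9, 10.4 and 13.8 CPM in SB4 and at 9.48, 10.2 and 9.40 in BS2. In SB2 it stood at 0.227, 0.459 and 0.242 CPM and in BS6 at 0.6, 0.500 and 0.259, which were 4 to 9 counts per library. It was 43.1-fold higher in SB4 than in SB2 (log2 fold change 5.43, SE 0.29, adjusted p = 9.79e-09) and 21.1-fold lower in BS6 than in BS2 (log2 fold change -4.40, SE 0.30, adjusted p = 2.97e-05).

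Hapln4 (chromosome 8, 70083457 to 70090862), the brain link protein that accompanies brevican in perineuronal nets, stood at 142, 162 and 133 CPM in SB4 and at 31.7, 127 and 68.4 in BS2. The BS2 libraries were spread widely although their Snap25 levels were close to each other, and all of them lay below SB4. In SB2 Hapln4 stood at 6.76, 6.36 and 5.56 CPM and in BS6 at 4.54, 7 and 8.92. It was 23.6-fold higher in SB4 than in SB2 (log2 fold change 4.56, SE 0.11, adjusted p = 1.30e-11) and 11.1-fold lower in BS6 than in BS2 (log2 fold change -3.47, SE 0.56, adjusted p = 0.00145).

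Of the summed CPM per kb of the 3 link proteins, Hapln1 took 83.2% ± 1.93 (SD, n = 3) in SB2 and 51.3% ± 20.1 in BS6. Hapln4 took 78.4% ± 2.16 in SB4 and 64.0% ± 16.9 in BS2, where its share ran from 46.1% to 79.7%. Hapln2 held the smallest share in SB2 and BS6, 1.26% ± 0.491 and 5.17% ± 2.95, and 12% ± 2.99 and 16.2% ± 6.18 in SB4 and BS2.

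**Figure D2:**
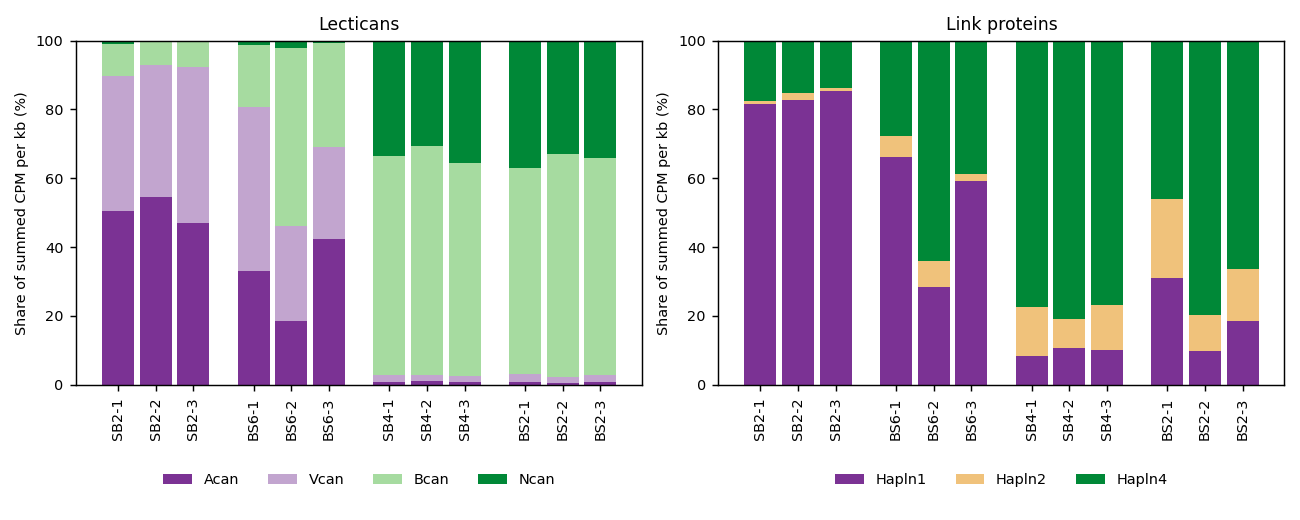
Share of each lectican (left) and link protein (right) in the summed CPM per kb of exon, in percent, one bar per library. Bcan and Ncan fill nearly the whole lectican bar in the SB4 and BS2 libraries, Acan and Vcan most of it in SB2, and BS6 replicate 2 holds the largest Bcan and Hapln4 shares of its group.

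The tenascins moved in opposite directions. Tnc (chromosome 4, 63959785 to 64047015), a tenascin of tendon, periosteum and wounds, stood at 1630, 1371 and 1924 CPM in SB2 and at 856, 292 and 1034 in BS6, against 2.42, 1.85 and 3.62 in SB4 and 2.43, 4.14 and 3.76 in BS2. By group mean it was the most abundant of the 10 genes per kb in SB2 and BS6 and the least abundant in SB4 and BS2, where in BS2 it overlapped Acan. Tnc was 616-fold lower in SB4 than in SB2 (log2 fold change -9.27, SE 0.25, adjusted p = 3.76e-09) and 211-fold higher in BS6 than in BS2 (log2 fold change 7.72, SE 0.62, adjusted p = 6.74e-05).

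Tnr (chromosome 1, 159523769 to 159931729), the tenascin of the nervous system that cross-links lecticans in perineuronal nets, stood at 199, 205 and 234 CPM in SB4 and at 188, 192 and 193 in BS2. In SB2 it stood at 0.909, 0.591 and 0.484 CPM. In BS6 the libraries stood at 0.867, 4.50 and 0.129 CPM, which were 13, 72 and 2 counts. BS6 replicate 2 thus carried most of the Tnr reads of its group, and it also had the most Snap25 of its group, 55.3 CPM against 16.7 and 25.3. Tnr was 318-fold higher in SB4 than in SB2 (log2 fold change 8.31, SE 0.15, adjusted p = 1.79e-12) and lower in BS6 than in BS2 by a log2 fold change of -6.68 (SE 0.91, adjusted p = 6.80e-04), or -8.57 without BS6 replicate 2. Per kb, the ratio of Tnc to Tnr was 2969 to 6582 in the SB2 libraries and 0.0149 to 0.0256 in those of SB4. It was 0.0214 to 0.0358 in BS2, but 1635, 107 and 13239 in BS6 replicates 1 to 3, where it rests on the few Tnr counts given above.

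Ptprz1 (chromosome 6, 22875502 to 23052916) is expressed by astrocytes and by cells of the oligodendrocyte lineage. It stood at 244, 216 and 268 CPM in SB4 and at 275, 224 and 241 in BS2, against 26.9, 24.9 and 23.5 in SB2 and 45.5, 43.8 and 56.8 in BS6. SB4 and BS2 overlapped, whereas all BS6 libraries lay above all SB2 libraries. Ptprz1 was 9.74-fold higher in SB4 than in SB2 (log2 fold change 3.28, SE 0.09, adjusted p = 4.59e-11) and 5.07-fold lower in BS6 than in BS2 (log2 fold change -2.34, SE 0.15, adjusted p = 2.40e-05).

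In the comparison of SB4 with SB2, 6 of the 10 genes were called higher and 3 lower (adjusted p below 0.05, more than a unit of log2 fold change), beside 56.4% of all 17293 genes tested (27.8% higher and 28.6% lower). In that of BS6 with BS2, 3 were called higher and 6 lower, beside 55.5% of 17311 genes (29% higher and 26.5% lower). In both, the libraries of the groups did not overlap for 10 of the 10 genes, as they did not for 85.6% and 80.7% of all genes tested. More of the family was called than of all genes, but a call was the usual outcome in both comparisons. The genes were also chosen with earlier results of these data known, so the excess is no test of the family. The median log2 fold change was 3.92 over the 10 genes and -0.01 over all genes from SB2 to SB4, and -2.88 and 0.02 from BS2 to BS6. The 9 called genes took opposite directions in the comparisons, and the difference between both log2 fold changes passed the same thresholds for these 9, positive for 3 (37.8% of all genes) and negative for 6 (35.8%).

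**Figure D3:**
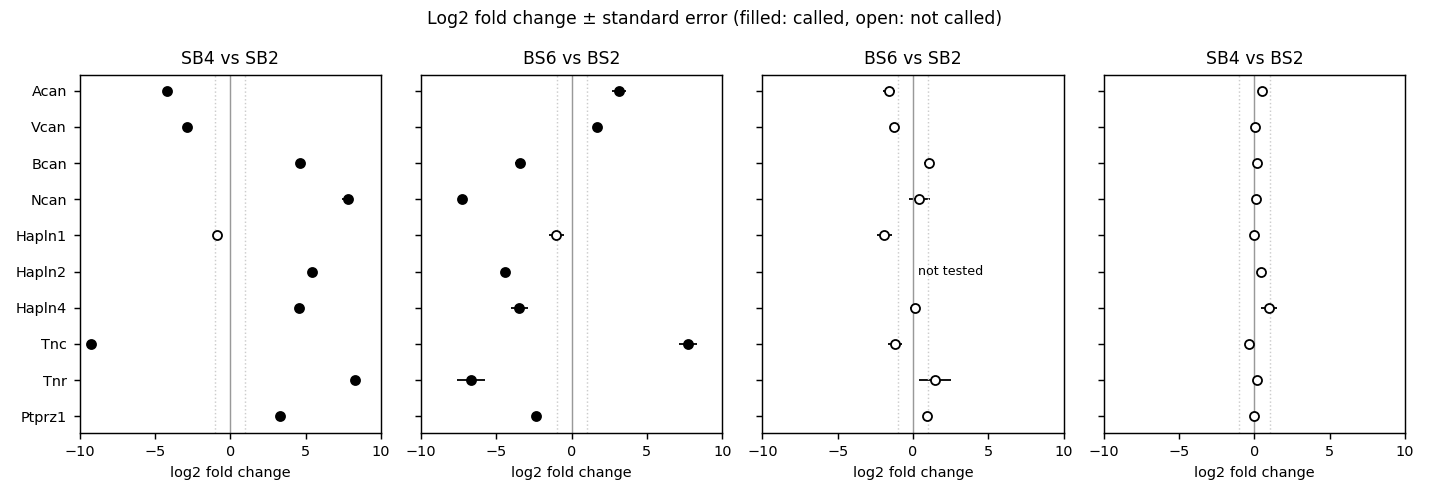
Log2 fold change with its standard error for each gene in 4 comparisons of groups, with filled points for genes called and open points for the others, and dotted lines at an absolute value of 1. The 9 genes called from SB2 to SB4 turn to the other side of 0 from BS2 to BS6, and none is called between SB2 and BS6 or between BS2 and SB4.

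The groups rich in bone transcripts were compared with each other, BS6 against SB2, although day, injured site and label all differ between them and cannot be told apart. None of the 9 genes tested was called by edgeR, beside 1.86% of 16329 genes (1.11% higher and 0.741% lower), while 6 had an unadjusted p under 0.05, as 29.2% of all genes had, and 6 did not overlap between the groups, as 38.1% of all genes did not. Hapln2 was not tested because of its low counts. Ptprz1 passed the adjusted p alone (log2 fold change 0.92, SE 0.13, adjusted p = 0.0311), with all BS6 libraries above all SB2 libraries. Its adjusted p was 0.00224 without BS6 replicate 2, and 0.0551 to 0.181 without each of the other libraries in turn. Acan, Vcan and Hapln1 lay lower in every BS6 library than in any SB2 library, with log2 fold changes of -1.59 for Acan (SE 0.42, adjusted p = 0.0733), -1.25 for Vcan (SE 0.31, adjusted p = 0.0652) and -1.90 for Hapln1 (SE 0.49, adjusted p = 0.0703). Tnc was at -1.21 (SE 0.46, adjusted p = 0.146) and Bcan at 1.03 (SE 0.32, adjusted p = 0.103). Tnr was at 1.43 (SE 1.06, adjusted p = 0.407) and turned to -0.45 without BS6 replicate 2.

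Whether genes of the family were called here depended on BS6 replicate 2, on the tool and on the libraries in the fit. Without that library 3 genes were called lower, Acan at -1.23 (adjusted p = 0.00466), Vcan at -1.01 (adjusted p = 0.0357) and Hapln1 at -1.49 (adjusted p = 9.01e-04). In the same fit 397 genes of all were called higher and 270 lower, against 182 and 121 with it. Other settings went the other way, since 0 genes of all were called in edgeR without any one SB2 library or with a replicate block. Without SB2 replicate 1 the adjusted p was 0.228 for Acan, 0.212 for Vcan and 0.220 for Hapln1. DESeq2 on all 6 libraries called Bcan higher and 4 genes lower, namely Acan, Vcan, Hapln1 and Tnc. It also called more of all genes than edgeR did, as given in the section on processing. In edgeR with all 12 libraries in one fit Bcan was called higher (adjusted p = 0.0152) and Acan, Vcan and Hapln1 lower (adjusted p = 0.00781, 0.00674 and 0.00827). That fit called 947 genes of all higher and 326 lower. BS6 replicate 2 was also the library with the lowest summed level of the bone-side marker lists in its group. The 12 matched chondrocyte markers summed to 1052 CPM in it against 1863 and 3615 in the others, and the 8 tendon and fibroblast markers to 3474 against 9582 and 9544. In SB2 the same lists summed to 735 to 916 and to 7332 to 9497 CPM. The summed chondrocyte level thus lay higher in every BS6 library than in SB2, with 1 of 9 markers tested called higher, while Acan and Hapln1 lay lower, and the part of cell type content in these differences was not tested. Col11a2 made up most of that sum, with 648 to 788 CPM in SB2 and 910 to 3366 in BS6. Of the other cartilage markers, Col2a1 stood at 5.91 to 8.73 CPM in SB2 and 20.3 to 47.5 in BS6 and Comp at 35.4 to 47.4 and 38.0 to 87.6. Col9a1 stood at 7.10 to 7.44 CPM in SB2 and at 7.74, 0.813 and 5.50 in BS6, and Sox9 at means of 9.45 and 9.11, whereas Matn1, Matn3 and Ucma were under 1 CPM in both groups.

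Between the groups rich in brain transcripts, SB4 and BS2, every estimate in the family was below 1 on the log2 scale with all libraries, and day, injured site and label cannot be told apart here either. None of the 10 genes was called by edgeR or DESeq2, beside 0.147% of 16278 genes in edgeR (0.086% higher and 0.0614% lower), and none passed the adjusted p alone with all libraries. With one library left out, Bcan passed it without BS2 replicate 2 (0.28, adjusted p = 0.0277) and Hapln2 without SB4 replicate 2 (0.61, adjusted p = 0.0243), both short of the fold threshold. Of the 10, 4 had an unadjusted p under 0.05 in edgeR (Acan, Bcan, Hapln2 and Tnr), as 11.9% of all genes had, and 4 did not overlap between the groups (Acan, Hapln2, Hapln4 and Tnr), as 16.9% of all genes did not. The estimates were 0.49 for Acan (SE 0.18, adjusted p = 0.261), 0.46 for Hapln2 (SE 0.14, adjusted p = 0.156), 0.18 for Bcan (SE 0.07, adjusted p = 0.308) and 0.16 for Tnr (SE 0.06, adjusted p = 0.268). Hapln4 had the largest estimate, 0.95, and also the largest error (SE 0.53, adjusted p = 0.590), since BS2 replicate 2 reached 127 CPM and BS2 replicate 1 only 31.7. Its estimate was 0.58 without BS2 replicate 1 and 1.56 without BS2 replicate 2, with no call in either (adjusted p = 0.728 and 0.283). The 7 parvalbumin interneuron markers summed to 1064, 979 and 1015 CPM in BS2 replicates 1 to 3, so they did not follow Hapln4 over these libraries.

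Per kb of exon the genes fell into the same order in both brain-rich groups except for a pair of neighbours near the top and another further down. In SB4 the order was Bcan (51.1 ± 1.03 CPM per kb, SD, n = 3), Hapln4 (37.1 ± 3.8), Ncan (26.6 ± 3.16), Ptprz1 (17.0 ± 1.84), Tnr (16.5 ± 1.43), Hapln2 (5.63 ± 1.15), Hapln1 (4.56 ± 0.776), Vcan (1.42 ± 0.0864), Acan (0.685 ± 0.00985) and Tnc (0.338 ± 0.116). Ptprz1 and Tnr overlapped, as did Hapln2 and Hapln1. In BS2 Ncan and Hapln4 changed places, as did Hapln1 and Hapln2, and the libraries of each of these pairs overlapped, as did those of Hapln4 and Ptprz1 and of Acan and Tnc. In SB2 Tnc led with 211 ± 35.6 CPM per kb, followed by Acan (12.9 ± 0.147), Vcan (10.5 ± 1.81) and Hapln1 (8.53 ± 0.448), with no overlap between neighbours. Bcan, Ptprz1 and Hapln4 came next at 2.02 ± 0.399, 1.76 ± 0.118 and 1.59 ± 0.155, each overlapping its neighbour, and Hapln2, Ncan and Tnr were at 0.131 ± 0.0548 or less. In BS6 Tnc led with 93.6 ± 49.8, and from Vcan (4.52 ± 1.84) through Acan, Bcan, Ptprz1 and Hapln1 to Hapln4 (1.74 ± 0.560) each gene overlapped the next.

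The brain-type genes differed in how much of them remained in the libraries rich in bone transcripts. Ncan in SB2 stood at 0.436% of its mean CPM in SB4 and Tnr at 0.311%, whereas Hapln2 stood at 2.32%, Bcan at 3.96%, Hapln4 at 4.27% and Ptprz1 at 10.4%. Without SB2 replicate 1 the value for Ncan was 0.195%. In BS6 as a percent of BS2 the values were 0.647% for Ncan, 0.959% for Tnr, 4.67% for Hapln2, 9.32% for Bcan, 9.01% for Hapln4 and 19.7% for Ptprz1. For comparison, the 10 neuron markers had a median of 0.487% in SB2 (0.162% to 3.54%) and 0.902% in BS6 (0.448% to 3.55%). Ncan and Tnr thus lay within the range of the neuron markers in both, and Bcan, Hapln4 and Ptprz1 lay above it in both. The 8 oligodendrocyte markers had medians of 2.26% in SB2 (0.143% to 74.8%) and 2.58% in BS6 (0.186% to 98.5%). The 8 astrocyte markers had medians of 8.59% (0.521% to 468%) and 8.49% (0.847% to 238%), with Gja1, which other cells also express, at the top of both. Ncan and Tnr thus also lay within the oligodendrocyte range in both, as did Bcan, Hapln4 and Ptprz1. The BS6 medians of the oligodendrocyte and astrocyte markers were both lower without BS6 replicate 2. In that library Aldoc stood at 100 CPM against 10.6 and 6.53 in replicates 1 and 3, and Mobp at 28.4 against 6.20 and 3.81, whereas Gja1 was lowest there. Without BS6 replicate 2, Tnr in BS6 was 0.261%, Ncan 0.516% and Bcan 8.06%. The neuron markers in BS6 then had a median of 0.542% (0.0949% to 3.35%), a range that still held Ncan and Tnr. Which cells carried the remaining RNA was not tested.

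**Figure D4:**
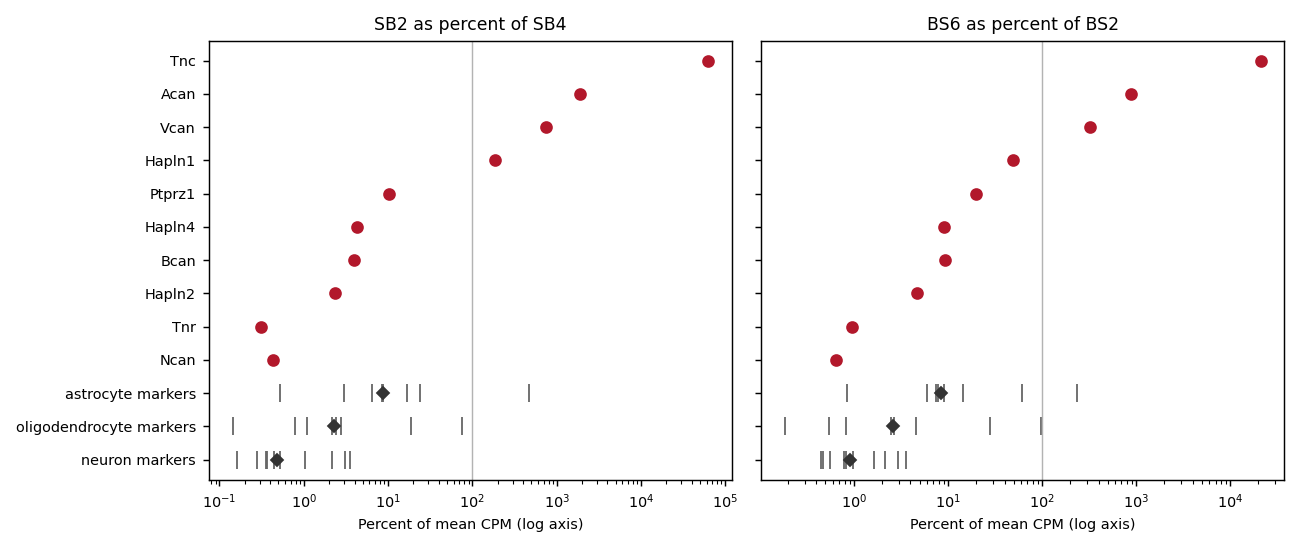
Mean CPM in SB2 as a percent of SB4 (left) and in BS6 as a percent of BS2 (right) on log axes, for each gene (circles) and for the genes of 3 marker lists (ticks, with a diamond at the median). Tnc, Acan and Vcan lie above 100% in both, Ncan and Tnr lie near the neuron median, and Bcan, Hapln4 and Ptprz1 lie to the right of every neuron marker.

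Each lectican gene lies beside a link protein gene in the mouse genome, with 0 other coding genes between them in GENCODE M21 on mm10. Acan and Hapln3 on chromosome 7 lie tail to tail 2 bases apart, Ncan and Hapln4 on chromosome 8 tail to tail 2222 bases apart, Vcan and Hapln1 on chromosome 13 tail to tail 43659 bases apart, and Bcan and Hapln2 on chromosome 3 on the same strand 21519 bases apart. The neighbours in 3 of the 4 pairs moved in the same direction in both comparisons over time. Such agreement was not counted over other pairs of genes, and the libraries fall into 2 sets by tissue content. Hapln3, a link protein of other tissues added here as the neighbour of Acan, was at 6.36, 8.01 and 6.71 CPM in SB2, 6.14, 2.81 and 6.79 in BS6, 1.64, 1.64 and 1.43 in SB4 and 1.24, 2.42 and 1.30 in BS2. It fell with Acan from SB2 to SB4 (log2 fold change -2.15, SE 0.20, adjusted p = 1.56e-06) and rose with it from BS2 to BS6 (log2 fold change 1.66, SE 0.44, adjusted p = 0.0127), a call lost at an adjusted p of 0.0523 without BS2 replicate 1 and 0.052 without BS2 replicate 3. The pair of Vcan and Hapln1 was the exception, although neither change of Hapln1 was called in the main fits. Both genes fell from SB2 to SB4 (log2 fold changes -2.88 and -0.88), but from BS2 to BS6 Vcan had 1.70 and Hapln1 -1.02. Their ratio per kb, Hapln1 to Vcan, was 0.702 to 0.964 in SB2 and 0.280 to 0.817 in BS6 but 2.55 to 4.02 in SB4 and 3.17 to 3.58 in BS2. Since Acan and Hapln3 end 2 bases apart on opposite strands and the use of strand in counting is not given, reads beyond either end could be shared between them. Tnc shares 176 exon bases with the antisense transcript 8030451A03Rik, which was at 7.45 CPM in SB2 and 3.44 in BS6, far below Tnc, and Tnr shares 443 exon bases with the antisense transcript Gm38039.

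A list of 6 relatives held the tenascins Tnn and Tnxb, the proteoglycans Cspg4 and Cspg5, the phosphatase Ptprg and Hapln3, whose values are given above. Of these, 4 were lower and 1 higher in SB4 than in SB2, beside 56.4% of all genes called, and 4 were higher and 1 lower in BS6 than in BS2, beside 55.5%. Tnn (tenascin-W), a tenascin of bone surfaces, was at 1801 ± 394 CPM (SD, n = 3) in SB2 and 650 ± 421 in BS6 but at 0.219 ± 0.0955 in SB4 and 0.426 ± 0.143 in BS2 (log2 fold changes -12.97 and 10.54). Tnxb, the tenascin of connective tissue, had log2 fold changes of -2.80 and 3.04. Cspg5 (neuroglycan C), a brain proteoglycan, had 6.00 and -5.32, with means of 275 CPM in SB4 and 4.28 in SB2. The adjusted p of these 6 changes in Tnn, Tnxb and Cspg5 was at most 9.60e-05.

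Among the enzymes that build chondroitin sulfate, 10 of 22 genes were lower and 1 higher in SB4 than in SB2 (median log2 fold change -0.92), beside 28.6% and 27.8% of all genes. In BS6 against BS2, 11 were higher and 3 lower (median 0.91), beside 29% and 26.5% of all genes. Chst13, a chondroitin sulfotransferase, had 0 counts in all SB4 libraries and was at least 23.5-fold lower there than in SB2, against a floor of 3 counts per library. In BS6 it had 405 counts in all against 3 in BS2, a ratio of 135 (exact 95% interval 45.8 to 656, counting error only) after scaling to library size. Without BS6 replicate 2 the ratio was 85.8 (28.9 to 420.1). Dse, which turns chondroitin into dermatan sulfate, had log2 fold changes of -4.45 (adjusted p = 1.80e-11) and 3.94 (adjusted p = 3.36e-05). Xylt1, which starts the chain on the core protein, went the other way, 2.01 (adjusted p = 1.51e-06) and -1.35 (adjusted p = 5.10e-04), and Chsy3, a chain polymerase, was lower in BS6 than in BS2 (-1.88, adjusted p = 0.0154).

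Of the 5 lists, that of hyaluronan genes had the most uniform direction by count. Of 14 matched genes 12 were lower and 0 higher in SB4 than in SB2 (median log2 fold change -2.51), beside 28.6% and 27.8% of all genes, and 11 were higher and 1 lower in BS6 than in BS2 (median 2.18), beside 29% and 26.5%. The receptor Cd44 stood at 194 CPM in SB2 and 1.49 in SB4 (log2 fold change -7.06, adjusted p = 1.47e-08) and at 154 in BS6 and 1.88 in BS2 (6.35, adjusted p = 1.22e-05). Lyve1, the hyaluronan receptor of lymphatic vessels and some macrophages, had -5.45 and 4.27 (adjusted p = 2.08e-06 and 1.83e-04). The synthase Has1 was the gene lower in BS6 than in BS2 (-1.16, adjusted p = 0.0132). Between SB2 and BS6 the one gene of the list called was Hmmr, a hyaluronan-binding protein of dividing cells, at -1.08 (adjusted p = 0.0346), a call lost without any one of the SB2 libraries and with a replicate block, where 0 genes of all were called.

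Receptors and partners were split by direction. Of 19 genes 7 were higher and 6 lower in SB4 than in SB2, and 6 were higher and 8 lower in BS6 than in BS2, beside 27.8%, 28.6%, 29% and 26.5% of all genes in the same order. The neural partners Cntn1, a ligand of Ptprz1, and Nrcam were higher in SB4 than in SB2 by 5.95 and 4.69 on the log2 scale (adjusted p = 1.75e-05 and 0.00113), and Rtn4r, which binds chondroitin sulfate chains, was lower in BS6 than in BS2 (-4.42, adjusted p = 1.18e-04). The integrin chains Itgb3 and Itgb1, which bind Tnc, had -4.19 and -3.76 from SB2 to SB4 (adjusted p = 9.05e-12 and 3.06e-11) and 4.77 and 3.04 from BS2 to BS6 (adjusted p = 5.03e-06 and 3.45e-05).

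Of 7 proteases that cut lecticans, 4 were lower and 1 higher in SB4 than in SB2, beside 56.4% of all genes called, and 4 were higher and 1 lower in BS6 than in BS2, beside 55.5%. Adamts9 had log2 fold changes of -5.24 and 5.22 (adjusted p = 7.73e-12 and 8.12e-05), and Adamts5, the main aggrecanase of mouse cartilage, -4.67 and 3.64 (adjusted p = 1.71e-11 and 1.04e-05). Adamts20 alone went the other way, 3.33 and -4.16 (adjusted p = 1.09e-08 and 8.62e-06). Between SB2 and BS6 Adamts1 was lower in BS6 (-1.24, adjusted p = 0.0304), a call lost in the same fits as that of Hmmr, and between BS2 and SB4 no gene of these 5 lists was called, beside 0.147% of all genes.

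Marker lists moved with these contrasts over the same libraries. The 10 neuron markers summed to 11580 to 12514 CPM in the SB4 and BS2 libraries and to 72.8 to 169 CPM in SB2 and BS6, with Rbfox3 and Nefl under 1 CPM in SB2. The 8 astrocyte markers summed to 5225 to 5773 CPM in the former and to 510 to 864 in the latter, of which Gja1 alone was 633 to 787 CPM in SB2 and 458, 182 and 672 in BS6 replicates 1 to 3. Gja1 was at 145 to 192 CPM in SB4 and BS2. The 8 oligodendrocyte markers summed to 1646 to 2302 and to 111 to 232 CPM, of which Cldn11 alone was 55.5 to 62.2 CPM in SB2 and 42.2 to 112 in BS6. Cldn11 was at 62.2 to 93.1 CPM in SB4 and 70.4 to 83.4 in BS2. On the other side, the 9 matched osteoblast and osteocyte markers summed to 23257 to 84488 CPM in SB2 and BS6 and to 23.7 to 37.2 CPM in SB4 and BS2. The 8 tendon and fibroblast markers summed to 3474 to 9582 and to 49.1 to 70.5 CPM. Of these, 7 were called lower and 1 higher in SB4 than in SB2, and 7 higher and 1 lower in BS6 than in BS2. Mkx went the other way from the sum, at 17.8 to 19.7 CPM in SB2 and 7.38 to 25.8 in BS6, against 38.1 to 43.6 in SB4 and 36.3 to 39.6 in BS2. The sum of the 7 oligodendrocyte precursor markers, which include Pdgfra and Cspg4 of other tissues, went the other way from the neural lists above. It was 248 to 431 CPM in SB2 and BS6 and 176 to 198 CPM in SB4 and BS2. The directions of Acan, Vcan and Tnc were those of the osteoblast and tendon sums. Those of the brain-type genes were those of the neuron, astrocyte and oligodendrocyte sums, and what part cell content had in them was not tested.

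The genes whose pattern over the 12 libraries was most like each member were found by the root mean square of the difference of centred log2(CPM + 1) values among 12577 genes with at least 10 CPM in a group. Tnr was closest to Elavl4 (0.16) and Omg (0.18), Ncan to Cdk5r2 (0.21) and Cpne6 (0.21), and Tnc to Lox (0.39) and Col12a1 (0.42). Bcan was closest to Caskin1 and Kcnn2 (both 0.22), Ptprz1 to Gabbr1 (0.17) and Shroom2 (0.18), and Hapln2 to Wnt10a (0.15) and Rnf39 (0.16). Acan was closest to Slitrk6 (0.25) and P3h4 (0.32), Vcan to Pdia4 (0.20) and Ssr2 (0.21), and Hapln1 to Ak1 (0.30) and Ptn (0.31). Hapln4 had the least close companions, Gm3294 (0.52) and Tmem108 (0.53), and whether its spread in BS2 set these distances was not tested. The libraries fall into 2 sets by tissue content, so many genes share each pattern. Ranked by Pearson correlation instead, 1 of the pair was found again for Ncan (Cdk5r2) and 0 for each other gene.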

How the data were processed

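Poly(A) RNA of 12 libraries, 3 in each of 4 labelled groups, was sequenced in paired-end mode. Reads were trimmed with fastp and aligned to mm10 with HISAT2 2.1.0 by the authors, who deposited raw counts per gene symbol. The counting program, the annotation, the use of strand and whether the counts precede ComBat_seq are not given in the sources used here. Columns were matched to samples by name, and 0 columns belonged to other samples. The authors describe 3 biological replicates per condition.

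Counts of all genes were tested with edgeR 4.0.16 in R 4.3.3 in fits of 2 groups (filterByExpr with a minimum count of 10, TMM, robust quasi-likelihood test, Benjamini-Hochberg adjustment over all genes tested). Calls required an adjusted p below 0.05 together with a log2 fold change beyond 1 in either direction, and the SE is the size of that change over the square root of the F statistic. The interaction of label and time was tested over all 12 libraries. Levels are CPM with TMM factors over the 12 libraries, divided for comparison between genes by the union exon length of GENCODE M21 in kb. A floor of 3 counts, under 1 CPM at these depths, stands for a count of 0 and covers counting error only. DESeq2 1.42.0, other factors and filters, a 12-library fit, a replicate block and leaving out each library were tried as alternatives. The test was tried first on simulated data with few changed genes and an even spread between replicates. These libraries differ from that setting, so the trial does not show how the test behaves on them.

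The genes and lists (relatives, chondroitin sulfate synthesis, hyaluronan, receptors and partners, proteases, and markers of neurons, parvalbumin interneurons, astrocytes, oligodendrocyte precursors, oligodendrocytes, chondrocytes, osteoblasts and osteocytes, and tendon and fibroblasts) were chosen with earlier results of these data known, so no list was tested as a set. Genes named from a pathway list were drawn from the 2 highest and 2 lowest log2 fold changes among called genes of each comparison, and Adamts1 and Hmmr as the only calls between SB2 and BS6. The 7 oligodendrocyte precursor markers, which include Pdgfra and Cspg4 of other tissues, summed to 248 to 431 CPM in SB2 and BS6 and 176 to 198 CPM in SB4 and BS2. Promoters are from RefSeq (GRCm38.p6), searched for 4 motifs on both strands.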

Additional observations from a re-analysis of the deposited data

Results flagged for a closer look

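For 9 of the 10 genes the change over time differed between the skull-labelled groups (BS2 to BS6) and the brain-labelled groups (SB2 to SB4), by an interaction term over the 12 libraries in edgeR with Benjamini-Hochberg adjustment. The difference of log2 fold changes, skull-labelled minus brain-labelled, was 17.01 for Tnc, 7.39 for Acan and 4.59 for Vcan. It was -15.04 for Ncan, -14.98 for Tnr, -9.81 for Hapln2, -8.08 for Bcan, -8.01 for Hapln4 and -5.61 for Ptprz1, and the adjusted p of these 9 was at most 2.89e-07. Of all 18068 genes in that fit 73.6% passed the same thresholds. Ncan was at -16.22 without SB2 replicate 1 and Tnr at -16.87 without BS6 replicate 2. The late days differ, day 4 against day 6, and the tissue content of the libraries changes with the day in opposite ways under these labels, so the difference and the labels cannot be told apart.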

How the results depend on the processing

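The calls of the 10 genes from SB2 to SB4 and from BS2 to BS6 kept their direction under every alternative that tested them. Requiring 10 counts in each library left 3 genes called higher in the former, 4 called lower in the latter and 3 negative in the difference between both changes, because it tested fewer genes. Hapln1 was called lower from SB2 to SB4 with upper-quartile factors (-1.02) and without SB4 replicate 2 (-1.01), and from BS2 to BS6 in the 12-library fit (-1.03, adjusted p = 0.0296). Its difference between both changes was 0.059 with upper-quartile factors and ran from -0.59 to 0.29 over libraries left out.

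Between SB2 and BS6, 182 genes of all were called higher and 121 lower. DESeq2 called 750 and 305, with 1 and 4 of the family, and the 12-library fit 947 and 326, with 1 and 3. With one library left out the range was 0 (without any one SB2 library) to 397 (without BS6 replicate 2) higher and 0 to 270 lower over the same libraries, and 0 to 3 of the family lower. Hapln4 ran from -0.15 (without BS6 replicate 3) to 0.33 and Tnr from -0.45 (without BS6 replicate 2) to 1.97.

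Between BS2 and SB4, 14 genes were called higher and 10 lower. DESeq2 gave 24 and 17, no filter 26 and 24, at least 10 counts 9 higher, the 12-library fit 3 and 5, and libraries left out 11 to 68 (without SB4 replicate 3) higher and 7 to 47 (without BS2 replicate 1) lower, with 0 of the family in each. Estimates near 0 changed sign, with ranges of -0.042 to 0.13 for Vcan, -0.19 to 0.062 for Hapln1, -0.10 to 0.064 for Ptprz1 and -0.26 to 0.30 for Hapln3, and Hapln4 ran from 0.58 to 1.56. The cause of these shifts was not tested.

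Same-numbered libraries correlated between -0.13 and 0.09 in their deviations, so the numbers do not pair them. With a replicate block 0 genes were called in either direction between SB2 and BS6, and 22 higher and 39 lower between BS2 and SB4, and Hapln1 was called from BS2 to BS6 (-1.22, adjusted p = 0.0397). Over all alternatives, 760 log2 fold changes of single genes kept their direction and their side of the thresholds, 16 gained a call, 2 lost it and 12 changed sign. Hapln2 in SB2 and BS6 rests on fewer than 10 counts per library.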
